A study of Mus musculus with 2 samples.

Results

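The genes described here are 10 that build the calcium release machinery of the cardiac sarcoplasmic reticulum: Ryr2, Casq2, Trdn, Jph2, Asph, Hrc, Srl, Fkbp1b, S100a1 and Camk2d. They were chosen by name, and they are 10 of the 15031 annotated genes with at least 1 read. The material was heart tissue of female B6CASTF1/J mice, an F1 hybrid of a C57BL/6J and a CAST/EiJ parent, aged 18 to 20 months. The labels name no treatment and no genetic change. RNA from this 1 group was sequenced as cDNA in long reads in 2 libraries, each made from 2 µg of RNA, so the design holds no contrast between ages, genotypes or treatments. By the labels the libraries came from different biosamples, but both point to 1 donor entry. Every test below therefore compares 2 libraries and measures only the spread between them, which may be technical. In whole heart tissue, fewer cells of a type and less RNA per cell cannot be told apart.

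Heart muscle contracts when a small entry of calcium through the surface membrane opens ryanodine receptors in the facing membrane of the sarcoplasmic reticulum, the cell's internal calcium store. Inside the store calsequestrin (Casq2), the histidine-rich calcium-binding protein (Hrc) and sarcalumenin (Srl) bind calcium, and triadin (Trdn) and junctin (from Asph) tie calsequestrin to the channel. Junctophilin 2 (Jph2) holds the store membrane against the surface membrane, the immunophilin made by Fkbp1b binds the channel, the calcium sensor S100a1 and the kinase Camk2d modulate it. Several of these genes are known to make different proteins by alternative splicing, which a long read can show because it carries its exons together.

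Per the deposited tables each read was assigned to a transcript model, and each model to a class. A known model matches an annotated transcript. An incomplete splice match carries only part of an annotated chain of introns, a new combination joins annotated splice sites in a chain that is not annotated, and a new splice site model uses an unannotated site. A genomic model is mostly unspliced. The libraries, called replicate 1 and replicate 2, held 600470 and 630598 reads in annotated genes. Levels are given as counts per 1000000 reads after TMM scaling (CPM), and 1 read equals 1.609 CPM in replicate 1 and 1.484 CPM in replicate 2. Intervals on shares are exact Clopper-Pearson 95% intervals, and they cover counting error only.

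The defining markers of heart muscle were abundant in both libraries. All 6 cardiac muscle markers had reads, with a summed level of 24311.5 CPM in replicate 1 and 21800.4 CPM in replicate 2. Skeletal muscle markers, which include close relatives of the genes studied here, summed to 6.437 and 7.422 CPM, with reads in 3 of 7 genes and none in Myh4, Myh2, Tnnt3 and Pvalb. The other marker lists had reads in every gene. The 3 erythroid markers summed to 24612.5 against 9505.7 CPM, the 4 atrial muscle markers to 1805.5 against 4317.9 CPM, the 2 adipocyte markers to 37.01 against 503.2 CPM, the 4 fibroblast markers to 333.1 against 460.1 CPM, and the 3 macrophage markers to 157.7 against 243.4 CPM. The 4 smooth muscle and pericyte markers summed to 259.1 and 236.0 CPM, the 4 endothelial markers to 177.0 and 160.3 CPM, and the 3 neuron and Schwann cell markers to 8.046 and 10.39 CPM. Their part in the results below was not tested.

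The 10 genes together gave 5848 reads in replicate 1 and 6209 in replicate 2. Their summed level was 9410.5 and 9216.2 CPM (mean 9313.4, SD 137.4, n = 2). Hrc alone made up 55.61% of that sum. It had 3200 and 3508 reads, 5178.2 ± 40.77 CPM (SD, n = 2), and ranked 19 among all annotated genes. S100a1 followed with 902 and 855 reads (1360.3 ± 129.0 CPM), then Srl with 568 and 560 reads (872.6 ± 58.54 CPM) and Trdn with 542 and 572 reads (860.6 ± 16.36 CPM). Casq2 had 354 and 389 reads (573.5 ± 5.484 CPM). Asph had 95 and 101 reads (151.4 ± 2.089 CPM) and the channel gene Ryr2 80 and 93 reads (133.4 ± 6.582 CPM). Camk2d had 50 and 90 reads (80.46 and 133.6 CPM) and Jph2 57 and 40 reads (91.72 and 59.37 CPM). On this scale the levels of Srl and Trdn, of Ryr2 and Camk2d, and of Camk2d and Jph2 overlapped between libraries, and the other neighbours in the order did not.

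Fkbp1b, whose product binds the release channel and steadies its closed state, was near the limit of detection. It had no listed read in replicate 1 and 1 genomic read in replicate 2. A count of 0 allows up to 3 reads, which is 4.828 CPM in replicate 1. Its near relative Fkbp1a, which makes the widely expressed form of the immunophilin, had 179 and 225 reads.

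**Figure D1:**
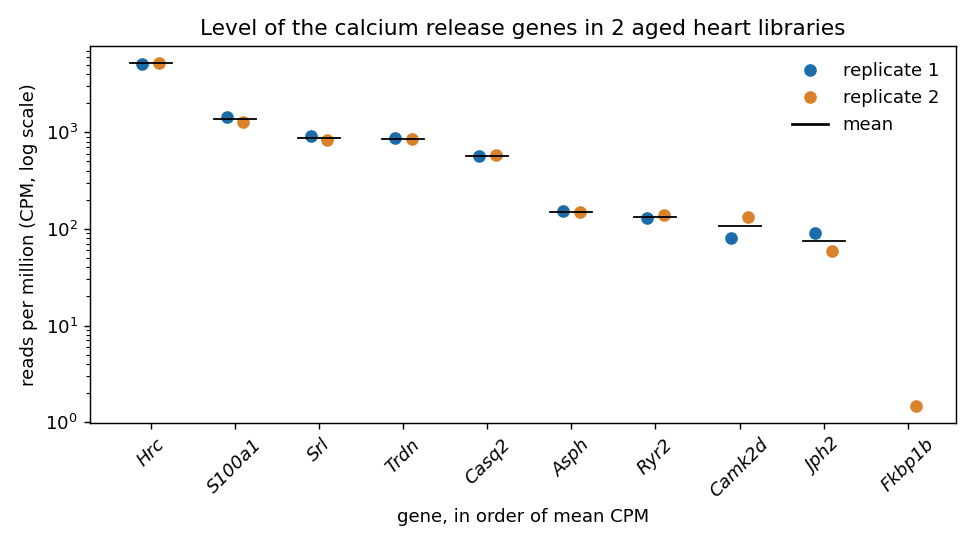
Level of each gene in CPM (log axis), 1 point per library, with the mean of the 2 libraries as a line. Hrc lies at 5149.4 and 5207.0 CPM, Jph2 at 91.72 and 59.37 CPM, and Fkbp1b is drawn only for replicate 2 because it had no read in replicate 1.

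Divided by the length of the longest annotated transcript, the order became Hrc (2147.7 CPM per kilobase), S100a1 (2009.3), Casq2 (224.4), Trdn (190.7), Srl (174.5), Asph (22.62), Camk2d (19.37), Jph2 (17.94), Ryr2 (7.933) and Fkbp1b (0.7604). Whether reads scaled with transcript length in these libraries was not tested. Only in Casq2 and S100a1 did most reads hold every intron of the transcript used as divisor. In Ryr2 and Trdn no read did, and in Srl 51 of 568 and 58 of 560 reads did. Hrc and S100a1 overlapped between libraries on this scale, as did Asph with Camk2d and Camk2d with Jph2. With these divisors the 3 luminal and anchoring genes Casq2, Trdn and Srl lay close together. Ryr2, with the longest transcript of the 10 (16814 bases), was lower than all but Fkbp1b.

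The classes of the reads differed widely among the 10 genes. Over both libraries 27.62% of their reads were known, 58.77% incomplete splice matches, 6.561% new combinations, 0.8626% new splice sites and 6.187% genomic. In all other annotated genes these shares were 69.68%, 16.49%, 2.713%, 2.277% and 8.845%. The high share of incomplete splice matches came from Hrc. The 9 genes without it had 60.09% known, 9.834% incomplete, 14.75% new combination, 1.383% new splice site and 13.95% genomic reads. Their new combinations were mostly from Srl, with 691 of 789 reads, and their genomic share lay above that of the other annotated genes, whereas the share over all 10 genes lay below it. Among the 2897 annotated genes with at least 50 reads, only 2 had a higher share of incomplete splice matches than Hrc (97.79%), and 28 had a higher share of new combinations than Srl (61.26%, where the median gene had 0.2553%). Jph2 (73.2%) and Ryr2 (67.63%) were mostly genomic, against 2.5% in the median gene, with 117 and 135 genes higher. Casq2 (85.33%) and S100a1 (94.08%) were mostly known.

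**Figure D2:**
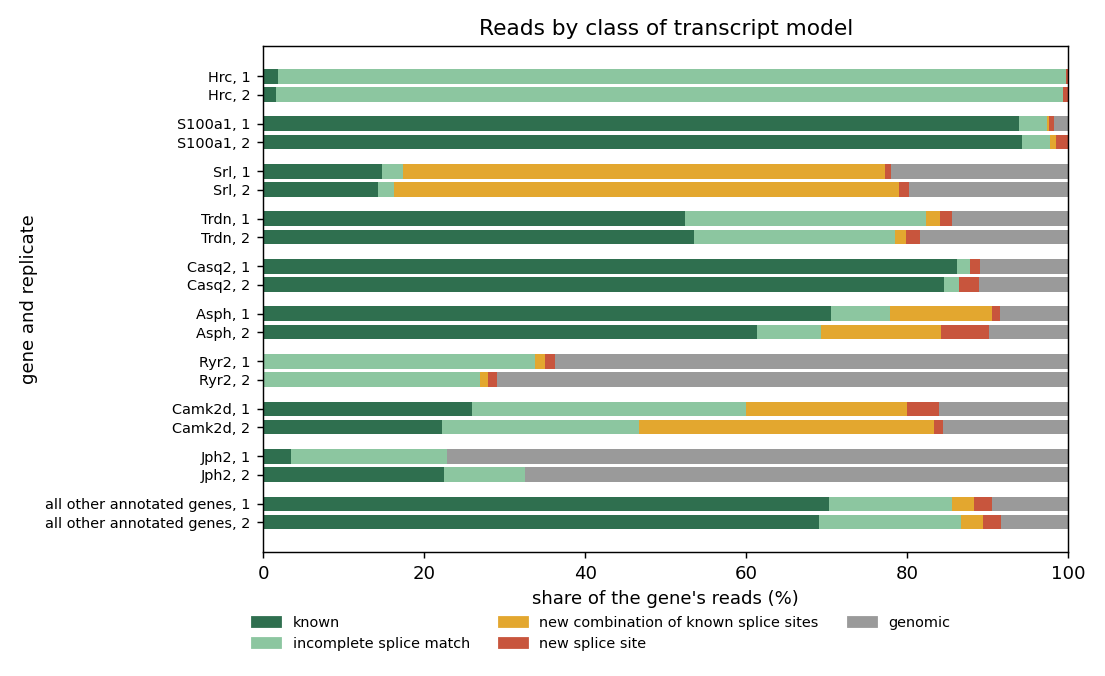
Share of each gene's reads in the 5 classes of transcript model (horizontal axis, percent), 1 bar per library, for 9 genes and all other annotated genes. Both libraries give each gene the same leading class, except Camk2d, and Hrc is almost wholly incomplete splice match (97.79%).

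The class name of an unspliced read was not always the same in the 2 libraries. In S100a1, 16 reads in replicate 1 were genomic and none in replicate 2, where 14 reads of a model with 1 exon were classed as incomplete splice matches. Counted by structure, reads of 1-exon models made up 1.774% and 1.637% of S100a1 reads. The ends of the deposited genomic models also do not mark the reads' length: 4 of them, with 213 reads, span 13 bases or fewer.

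Ryr2 encodes the release channel (chr13:11553102-12106945, minus strand, mm10), with 105 exons in its longest annotated transcript. No read of either library matched an annotated Ryr2 transcript. Of its reads 51 in replicate 1 and 66 in replicate 2 were genomic. Of these 117, 106 were of models that overlap the last exon, at the 3′ end of the gene. The spliced reads, 28 and 27, fell into partial pieces from both ends. The first intron was held by 14 and 13 reads and the last intron by 5 and 4, and the best covered intron had 34 reads over both libraries. The longest read by exon count joined 42 exons. Reads with every intron of the longest annotated transcript numbered 0 in each library. This allows a share of such reads up to 4.506% in replicate 1 and 3.889% in replicate 2 (upper exact bounds). With genomic reads left out, the bounds were 11.94% and 12.77%. A read with the unannotated small exon described below lacks some of these introns even at full length. The bounds therefore do not limit full-length reads of that form.

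Reads from the 5′ end of Ryr2 ended inside the gene at a few places that both libraries shared. Of the 27 reads with the first intron, 5 in each library ended in an unannotated extension of an exon at chr13:11789878-11790363. Another 3 in each library ended at chr13:11771040-11772579, the annotated end of a short Ryr2 transcript. As models, a 22-exon chain with the first of these ends had 5 and 4 reads, a 25-exon chain with the other 3 and 3, and the genomic model at the 3′ end of the gene 46 and 59. No read with the first intron went beyond 32 exons. These are counts of 1 to 5 reads per library, and whether such reads are finished transcripts or partial copies of longer ones was not tested.

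A small exon near the start of Ryr2 set these reads apart from the annotation. Between exon 3 and the 75-base exon that follows, 14 of 14 spanning reads in replicate 1 and 12 of 13 in replicate 2 held a 27-base exon at chr13:11903212-11903238 (26 of 27, 96.3%, interval 81.03 to 99.91%). The remaining read joined the 2 flanking exons directly. No annotated transcript holds this exon. It is read from the deposited models, and whether exons this short were placed correctly in alignment was not tested. The longest annotated transcript has exons of 21 and 15 bases in this interval, and the other long one has exons of 7 and 29 bases. The 21-base exon, which shares its acceptor site, was an inner exon of 1 read, and the other 3 of none. Of the 26 reads, 24 were nevertheless classed as incomplete splice matches in the deposited tables. Because the complete annotated chains hold other exons here, no read with the 27-base exon could match either of them.

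**Figure D3:**
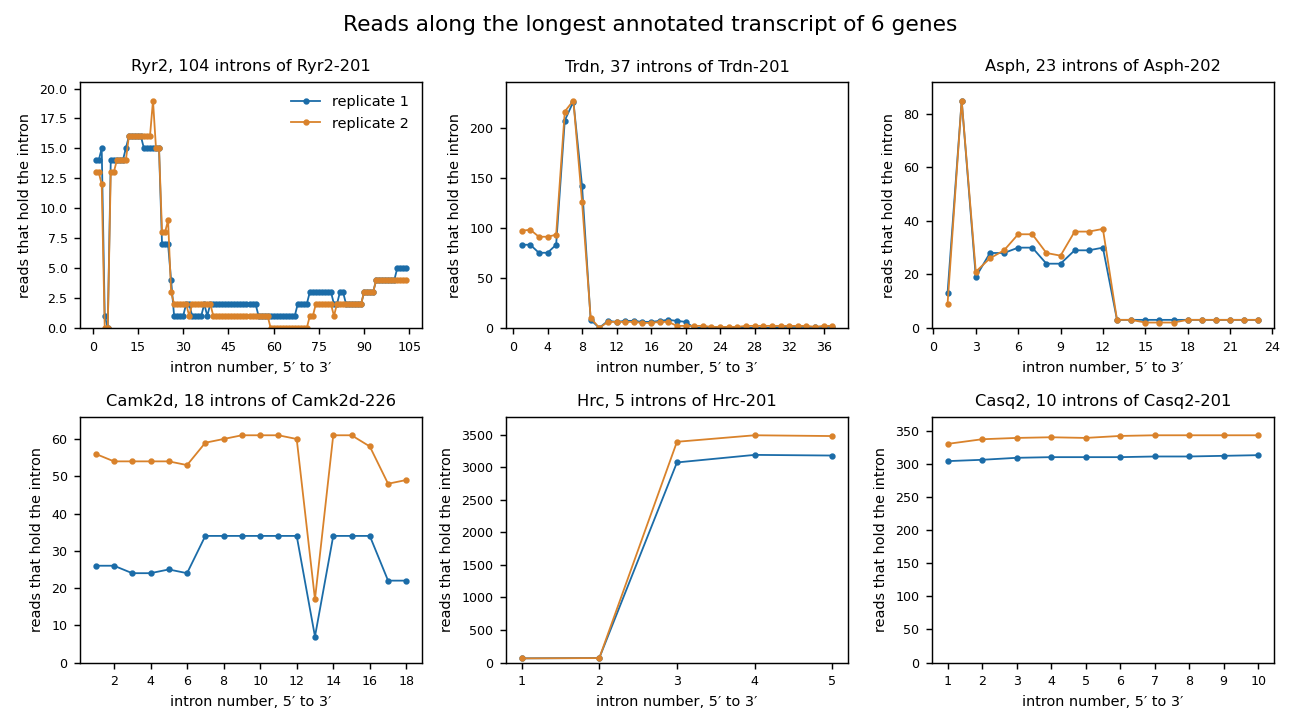
Reads that hold each intron of the longest annotated transcript (vertical axis, reads), by intron number from 5′ to 3′, for 6 genes and both libraries. Ryr2 drops to 1 read or none at introns 4 and 5, beside the 27-base exon, and Casq2 is level along its 10 introns.

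Casq2, the calcium-binding protein of the store (chr3:102086415-102146514, plus strand), was read nearly whole. Its full annotated transcript of 11 exons held 303 of 315 reads outside the genomic class in replicate 1 (96.19%, interval 93.44 to 98.02%) and 327 of 346 in replicate 2 (94.51%, interval 91.56 to 96.66%). The first intron was held by 634 reads and the last by 656. Genomic reads numbered 39 and 43, and 81 of these 82 were of models that overlap the last exon. A second first exon, which starts at chr3:102082127, upstream of the annotated gene, and runs to an unannotated donor site, carried 2 reads in replicate 1 and 6 in replicate 2. A 9-exon model without the 5′ end had 3 and 2 reads.

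Hrc, which binds calcium in the lumen through long acidic, histidine-rich repeats (chr7:45335290-45338974, plus strand), was read almost only from its 3′ part. The leading model had 4 exons, exons 3 to 6 of Hrc-201, and took 2985 of 3200 reads in replicate 1 and 3295 of 3508 in replicate 2. A 3-exon model that starts at exon 4 had 122 and 109 reads. The full transcript Hrc-201 had 60 and 56 reads. The next 4 models had 8 and 10, 6 and 12, 5 and 6, and 3 and 4 reads. In replicate 2 not all of their reads were classed as incomplete splice matches. By first exon, 94.27% of spliced reads (interval 93.69 to 94.82%) began in exon 3, 3.579% in exon 4 and 1.775% in exon 1, while 99.28% ended in the annotated last exon. The leading model was ranked 3 among the incomplete splice match models of the series by reads, with 6280. Whether it is a transcript with its own start or a partial copy was not tested.

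The missing part of Hrc is where most of the protein is encoded. Exon 1 holds 1948 of the 2214 coding bases (87.99%), and 79 of its 649 whole codons are histidine codons and 32.67% are codons for aspartate or glutamate. The coding part of exons 3 to 6 has 195 bases (8.808%) and 3 histidine codons. The first sequence below is the coding part carried by the leading model, in capitals, after the last 15 bases of exon 2 (exons between chr7:45337887 and 45338914). The second is the 40-codon window of exon 1 with the most histidine codons (chr7:45336000-45336119), a stretch that the leading model lacks, with its 11 histidine codons in capitals. All sequences printed here are GENCODE M21 transcripts on mm10, 5′ to 3′ on the gene's strand, and not the hybrid's own alleles.
Hrc exons 3 to 6: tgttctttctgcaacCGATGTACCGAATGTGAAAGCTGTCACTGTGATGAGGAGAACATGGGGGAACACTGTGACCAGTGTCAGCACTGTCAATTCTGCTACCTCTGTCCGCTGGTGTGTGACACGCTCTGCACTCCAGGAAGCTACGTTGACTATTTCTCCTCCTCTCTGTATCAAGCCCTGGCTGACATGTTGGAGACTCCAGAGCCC
Hrc exon 1: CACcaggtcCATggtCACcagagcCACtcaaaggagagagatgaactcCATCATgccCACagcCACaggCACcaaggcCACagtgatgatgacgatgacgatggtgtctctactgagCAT

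Srl gives rise to sarcalumenin and to a shorter glycoprotein of the same membrane by alternative splicing (chr16:4480216-4541816, minus strand). Its most read model is not annotated as a whole. This 6-exon chain had 336 reads in replicate 1 and 340 in replicate 2 and was a new combination, ranked 5 by reads among the models of that class in the series. It skips the 1311-base second exon of Srl-201 (chr16:4496405-4497715) and splices exon 1 to the 102-base exon that follows. Among reads that join exon 1 to the exon at chr16:4492294-4492389, 339 of 427 in replicate 1 and 345 of 436 in replicate 2 had that form (79.26% of both, interval 76.4 to 81.92%). The form with the 1311-base exon, as in Srl-201, had 51 and 57 reads (12.51%). The form that skips it and uses an acceptor 3 bases further on, as in the annotated short transcript Srl-202, had 34 and 23 reads (6.605%). Another 2 and 8 reads had the 1311-base exon with the shorter acceptor.

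The skipped Srl exon is 48.02% of the 2730 coding bases of Srl-201, keeps the reading frame, and is rich in acidic codons (84 glutamate and 27 aspartate of 436 whole codons, 25.46%). Counted as a cassette, it was held by 53 of 428 reads in replicate 1 and 65 of 437 in replicate 2 (13.64% of both). The 3 sequences below differ at that junction: in each the first 15 bases, in lower case, are the end of exon 1 at chr16:4522993. The first shows the leading form, with the 3 extra bases of the 102-base exon in capitals (chr16:4493878-4493880), the second the Srl-202 form without them, and the third the first 90 bases of the 1311-base exon in capitals (chr16:4497626-4497715).
Srl leading form: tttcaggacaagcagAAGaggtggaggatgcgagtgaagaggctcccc
Srl-202 form: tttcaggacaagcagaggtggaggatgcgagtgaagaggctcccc
Srl-201 form: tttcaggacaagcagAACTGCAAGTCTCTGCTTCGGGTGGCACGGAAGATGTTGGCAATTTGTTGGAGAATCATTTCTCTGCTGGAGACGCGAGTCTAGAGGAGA

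Srl was otherwise read from end to end. Of its spliced reads 96.75% began at the annotated exon 1 and 99.78% ended in the annotated last exon. A 6-exon model that begins in the 1311-base exon had 5 and 6 reads. Of 236 genomic reads, 235 were of models that overlap the last exon. These models had 124 reads in replicate 1 and 103 and 8 reads in replicate 2.

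Trdn (chr10:33080554-33476709, plus strand) encodes triadin, which links calsequestrin to the ryanodine receptor. The heart is known to make a short form, and longer forms are known from skeletal muscle. No read carried the 38-exon chain of Trdn-201, and its last exon was reached by 1 and 2 reads. Spliced reads numbered 241 and 240. Of these 127 and 111 (49.48%) ended in the last exon of the 9-exon transcript Trdn-202, most often in models with that exon at chr10:33200163-33200369. Another 76 and 91 (34.72%) had the exon before it as their last. Their commonest model end was that of Trdn-208, past the donor of that exon and into the intron, at chr10:33195949-33196317. The ends of Trdn-206 and Trdn-207 had 11 and 12 reads. The 2 leading ends differ in the coding bases after their common exon, whose last 15 bases are in lower case below. The capitals mark the coding part of each end, chr10:33200163-33200254 for Trdn-202 and chr10:33196126-33196169 for Trdn-208.
Trdn-202 end: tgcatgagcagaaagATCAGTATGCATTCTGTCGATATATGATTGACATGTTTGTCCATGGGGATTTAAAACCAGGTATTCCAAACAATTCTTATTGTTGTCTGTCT
Trdn-208 end: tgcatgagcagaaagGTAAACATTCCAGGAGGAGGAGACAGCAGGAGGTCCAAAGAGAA

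Most triadin reads lacked the 5′ end. The annotated first intron was held by 180 of the 481 spliced reads, while 51.35% of spliced reads began in the inner exon at chr10:33183954-33184016. From that exon a 4-exon model to the Trdn-202 end had 79 and 84 reads, and a 3-exon model to the Trdn-208 end had 29 and 20. The full Trdn-208 had 36 and 61 reads and the full Trdn-202 27 and 20. A 33-base coding exon at chr10:33158246-33158278, given in capitals below between 15 bases of each neighbour, is held by all annotated transcripts that span it. It was present in 75 of 84 spanning reads in replicate 1 and 90 of 96 in replicate 2 (91.67% of both, interval 86.63 to 95.26%). The other 9 and 6 reads skipped it by a join that is not annotated.
Trdn 33-base exon: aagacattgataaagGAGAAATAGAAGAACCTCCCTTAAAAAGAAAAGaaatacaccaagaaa

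The largest single Trdn model was not spliced. Trdn-204, an annotated retained-intron transcript of 1 exon (chr10:33198705-33200369) that overlaps the last exon of Trdn-202, had 221 and 225 reads. Genomic reads numbered 78 and 105. Reads of all 1-exon models, 301 and 332, made up 56.82% of Trdn reads, against 20.25% in all other annotated genes. The largest genomic models had 0 and 49, 37 and 5, and 18 and 13 reads, a split that depends on matching such models by 50% overlap. By place, 39 and 61 genomic reads were of models that overlap annotated exons and 39 and 44 of models that overlap none. None of the 183 genomic reads of Trdn lay in the last exon of Trdn-201.

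Asph (chr4:9448069-9669344, minus strand) encodes aspartate beta-hydroxylase and, by alternative splicing of the same gene, junctin, the anchor beside triadin. The end of the short 5-exon transcript Asph-206, whose coding sequence of 621 bases is that of a junctin form, led in both libraries. It took 52 of 87 spliced reads in replicate 1 and 50 of 89 in replicate 2 (57.95%). The end shared by Asph-208 and Asph-204 had 27 and 34 reads (34.66%), and the end of the 24-exon hydroxylase transcript Asph-202 had 3 and 3 (3.409%). As whole transcripts, Asph-206 had 48 and 47 reads, Asph-208 10 and 9, and Asph-204 4 and 3. A 15-exon model, Asph-208 with the 42-base exon described next, had 3 and 6, and a genomic model 5 and 0. A complete Asph-202 chain was read once, in replicate 1. The antisense neighbour Clvs1 shares 2302 exon bases with Asph and had 9 and 8 reads, and the sources used here do not say how the strand was set.

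Asph reads began at 2 first exons. The downstream one, whose coding part is short (chr4:9643535-9643550), began 69 and 76 reads (82.39%). The upstream one (coding part chr4:9668781-9668910) began 13 and 9 (12.5%). Both are shown in capitals below, followed by the first 15 bases of the common next exon. A 42-base exon (chr4:9624360-9624401) depended on the end: 99 of 102 reads that went on to the junctin end held it as the only exon between, and 16 of 56 reads that went on to the longer forms. It is shown in capitals with 15 bases before and 30 after it in the junctin form.
Asph short first exon: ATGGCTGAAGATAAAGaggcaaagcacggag
Asph long first exon: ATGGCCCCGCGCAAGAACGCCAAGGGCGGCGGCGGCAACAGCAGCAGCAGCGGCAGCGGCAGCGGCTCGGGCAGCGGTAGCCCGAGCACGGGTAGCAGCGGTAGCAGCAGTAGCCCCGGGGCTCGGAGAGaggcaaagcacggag
Asph 42-base exon: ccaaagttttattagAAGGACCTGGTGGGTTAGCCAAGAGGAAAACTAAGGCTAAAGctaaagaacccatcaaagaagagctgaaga

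Jph2 (chr2:163336242-163397993, minus strand), the tether of the junction, gave few spliced reads. Genomic reads numbered 44 of 57 in replicate 1 and 27 of 40 in replicate 2. Of these 71, 69 were of models that overlap the last exon. All 13 spliced reads in each library ended in the annotated last exon. The full annotated transcript of 6 exons had 2 of 13 reads in replicate 1 and 9 of 13 in replicate 2 (two-sided Fisher's exact test, p = 0.01542, adjusted p = 0.4147 over 4223 genes). The other spliced reads began at inner exons, in models of 5 exons (7 and 1 reads) and 3 exons (4 and 2 reads) among others.

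S100a1 (chr3:90511034-90514392, minus strand), a short gene of 3 exons, was read whole. The annotated 3-exon transcript with the longer ends held 845 of 886 reads outside the genomic class in replicate 1 (95.37%) and 803 of 855 in replicate 2 (93.92%). Reads without the first exon numbered 31 and 16, and a model with an unannotated donor just past the first exon had 4 and 11. A 2-exon model that skips the inner exon had 2 and 6 reads, and the other annotated transcript 2 and 3.

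Camk2d (chr3:126596302-126846326, plus strand) encodes the delta chain of a calcium-activated kinase that phosphorylates the ryanodine receptor and phospholamban. Its forms differ in small exons of the linker between the kinase and the association domain. The 33-base exon holds the nuclear localization signal of the form called delta B, and the form without any linker exon is delta C. Of the reads that span this interval, 34 in replicate 1 and 61 in replicate 2, the commonest form held only the 42-base exon, in 19 and 26 reads (47.37%, interval 37.03 to 57.88%). No linker exon was found in 7 and 17 (25.26%), the 33-base exon alone in 5 and 11 (16.84%), the 60-base exon alone in 0 and 5, and the 60-base and 42-base exons together in 3 and 2. The intervals of the form without a linker exon (16.91 to 35.22%) and the form with the 33-base exon (9.944 to 25.9%) overlap. The exons are shown in capitals between the flanking exons, at chr3:126808208-126808249, chr3:126802937-126802969 and chr3:126805857-126805916.
Camk2d 42-base exon: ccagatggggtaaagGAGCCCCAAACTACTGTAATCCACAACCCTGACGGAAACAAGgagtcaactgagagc
Camk2d 33-base exon: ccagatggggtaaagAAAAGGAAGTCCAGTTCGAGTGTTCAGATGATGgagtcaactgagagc
Camk2d 60-base exon: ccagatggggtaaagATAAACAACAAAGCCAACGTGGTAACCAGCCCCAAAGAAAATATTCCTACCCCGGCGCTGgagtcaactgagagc
Camk2d no linker exon: ccagatggggtaaaggagtcaactgagagc

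Near the other end of Camk2d an 89-base exon, placed before the last exon, changes the end of the coding sequence. It was held by 22 of 40 spanning reads in replicate 1 and 48 of 68 in replicate 2 (64.81% of both, interval 55.04 to 73.76%). Its coding part (chr3:126841485-126841548) is in capitals below after 15 bases of the exon before it. Because a long read carries both regions, the combinations could be counted in 33 and 59 reads. The 42-base and 89-base exons together were the commonest, in 9 and 19 reads (30.43%), followed by the 42-base exon alone (9 and 5) and the 89-base exon alone (4 and 10). The 33-base exon with the 89-base exon had 4 and 7 reads, and reads with none of these exons numbered 3 and 7. No annotated transcript holds the 42-base exon as its only linker exon together with the 89-base exon, and the model that does, a new combination of 20 exons, was the most read Camk2d model (6 and 18 reads). A like model with the 33-base exon in its place had 2 and 6 reads. Annotated chains had fewer: Camk2d-226 had 3 and 7, Camk2d-202 5 and 4, and Camk2d-204 3 and 6. Partial models of 3 and 2 exons at the 3′ end had 3 and 6, and 4 and 4 reads, and a genomic model there 6 and 11.
Camk2d 89-base exon: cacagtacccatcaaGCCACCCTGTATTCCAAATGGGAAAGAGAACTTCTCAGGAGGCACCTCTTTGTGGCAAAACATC

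**Figure D4:**
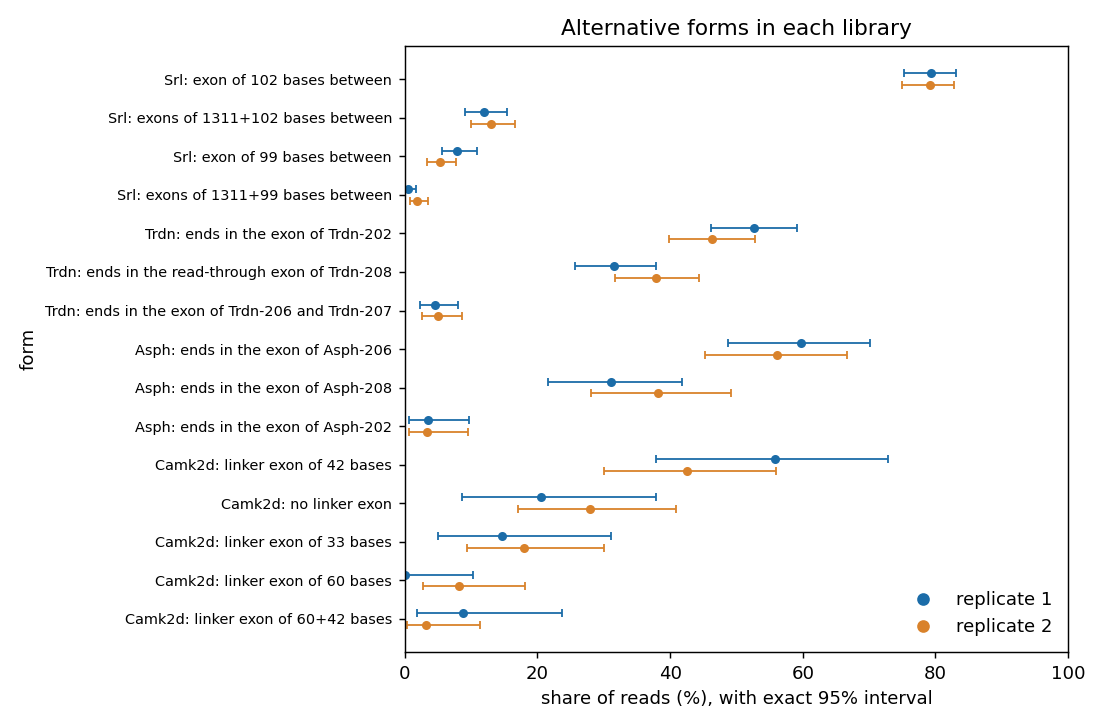
Share of reads (horizontal axis, percent) of each alternative form of Srl, Trdn, Asph and Camk2d, 1 point per library with its exact 95% interval. The 2 libraries' intervals overlap for every form drawn, and the Srl form with only the 102-base exon lies at 79.39% and 79.13%.

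Between the libraries, 156 of the 7545 genes tested differed in reads (2.07%; exact two-sided binomial test against TMM-scaled library sizes, Benjamini-Hochberg adjusted p under 0.05). None of the 9 members with enough reads was among them, and 3 had an unadjusted p under 0.05, against 735 of all genes. Camk2d was 1.66-fold higher in replicate 2 (interval 1.162 to 2.395, exact binomial p = 0.003913, adjusted p = 0.1225). S100a1 was 1.144-fold higher in replicate 1 (1.04 to 1.257, exact binomial p = 0.005199, adjusted p = 0.1475). Jph2 was 1.545-fold higher in replicate 1 (1.013 to 2.376, exact binomial p = 0.04157, adjusted p = 0.4709). The median log2 ratio of the 9 was 0.0286, against -0.00053 over all genes tested. These tests take counting error as the only error.

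In the share of the leading spliced model, 73 of 4223 genes were called (1.73%) and none of the 9 members, with Jph2 the only one at an unadjusted p under 0.05. With genomic models included, Jph2 was called (42 of 57 against 0 of 40 reads in its leading model, Fisher's exact test, adjusted p = 4.882e-13), where the genomic models of the 2 libraries overlapped by less than 50% and were counted as different ones. Of 22320 exon events in all genes 14 were called (0.0627%), and none of 110 events in members by the same two-sided Fisher's exact test. At an unadjusted p under 0.05 there were 308 events in all genes and 2 in members, the Trdn-202 end (126 of 198 against 111 of 210 reads, Fisher's exact p = 0.03489) and the donor joined to the shorter Srl acceptor (exon 1 in 34 of 36 against 23 of 31 reads, exact p = 0.03594). Both had an adjusted p of 1. Last-exon events count an incomplete splice match only where it is labelled as the 3′ part of an annotated chain. The Trdn totals here are therefore smaller than the spliced reads given above.

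The neighbouring calcium genes, a list of 42, had reads in 37. Among the most abundant were Pln (14855.2 CPM), which restrains the calcium pump, the pump Atp2a2 (4686.3 CPM), the potassium channel of the store Tmem38a (503.0 CPM) and Reep5 (468.0 CPM), a protein that shapes the reticulum. No reads were listed for Ryr3, Jph3, Jph4, Camk2a and Jsrp1, and Casq1, the skeletal calsequestrin, had 1 and 2 reads. Of 26 tested, 2 were called higher in replicate 1 and 1 in replicate 2, beside 156 called of all 7545 genes tested (2.07%). Atp2a2 was 1.153-fold higher in replicate 1 (3119 and 2933 reads, exact binomial test, adjusted p = 4.304e-06) and Pln 1.06-fold (9499 and 9718 reads, adjusted p = 0.00441). Sln, sarcolipin, which restrains the pump in atrial muscle, had 95 and 271 reads, a ratio of replicate 1 to replicate 2 of 0.38 (adjusted p = 1.965e-15, exact binomial test), in the direction of the summed atrial markers given above, one of which it is. Against the uptake genes Atp2a2, Pln and Sln, with 12713 and 12922 reads, the 10 release genes gave 5848 and 6209. Known models held 24.46% of the uptake genes' reads, with 8.612% in Pln, 70.22% in Atp2a2 and 100% in Sln. The class name of most Pln reads differed between libraries. In replicate 1, 8696 were genomic and 2 incomplete splice matches, and in replicate 2, 0 were genomic and 8851 incomplete splice matches.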

How the data were processed

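Per the notes deposited with each library, reads were aligned to mm10 and annotated with GENCODE M21, and per the file headers the authors deposited raw read counts for TALON transcript models, each library counted on its own. The aligner, its version and any filter were not given in the sources used here. Of 27441 known model rows 27428 were found in M21, all with identical exons. Reads of the hybrid's CAST/EiJ alleles were aligned to the C57BL/6J reference, and the effect on the counts was not tested. The libraries list 642970 and 677209 reads, of which 12759 and 12890 are ERCC spike-ins, left out here. Rows at 0 are not listed.

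Models were matched between libraries by transcript identifier or intron chain, and single-exon models by 50% overlap. TMM factors (0.986072 and 1.014125) came from edgeR 4.0.16 on genes with at least 10 reads, and DESeq2 1.42.0 size factors served as an alternative. Genes with at least 10 reads over both libraries were compared by exact binomial tests, and leading models and exon events with at least 10 reads in each library by Fisher's exact test (scipy 1.17.1), with Benjamini-Hochberg adjustment over all genes or events at 0.05. For exon events the design named an adjustment over the members' events; all genes' events were used instead. The scripts of these tests were also run on simulated reads, which carried counting error only and no further spread between libraries. All 10 genes are named, with models of at least 5 reads or 5% of a gene's reads, at most 8 per gene, and of the neighbouring genes the 5 most abundant (1 of them is not reported here), those called and those without reads. The members and lists were chosen with earlier results of these data known. Alternatives were other scaling, read minimums, read classes and each library alone.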

Additional observations from a re-analysis of the deposited data

How the results depend on the processing

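No member was called in the gene test under any alternative run, where 111 to 215 genes were called. Of 53 alternative log2 ratios of members 47 kept their direction. The 6 that reversed were not called: Ryr2 0.22 with genomic reads left out, Casq2 0.0074, Jph2 -1.81 and Hrc 0.22 with known transcripts only, and Trdn -0.0016 and Asph -0.012 with total mouse reads as library sizes. The summed level of the 10 genes was 2575.2 CPM with known transcripts only, 8736.7 CPM with genomic reads left out, 4815.2 CPM per kilobase, and 9216.2 to 9410.5 CPM when either library was left out. In the leading share, 144 of 4765 genes and 1 member, Jph2, were called with genomic reads included, and 0 of 3386 genes with known transcripts only (54 at an unadjusted p under 0.05). Reads that held every intron of their gene's longest annotated transcript were 21.04% of member reads, and 22.43% with genomic reads left out. Full reads of shorter transcripts, such as Trdn-202 or Asph-206, are not counted in these shares. Leaving out Hrc, an alternative chosen after seeing the data, gave class shares of 60.09% known, 9.834% incomplete, 14.75% new combination, 1.383% new splice site and 13.95% genomic. With known transcripts only, the 1311-base Srl exon was in 65.24% of reads and the 89-base Camk2d exon in 43.75%, since the leading models are not annotated. Depth limits Ryr2, Jph2, Camk2d and Fkbp1b most. No paired analysis was possible because the 2 libraries form 1 group.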

Other observations

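The annotation held most but not all of the introns in these genes. Reads of the 9 genes with spliced reads used introns absent from GENCODE M21 at rates that ranged from 0 of 26 spliced reads in Jph2 and 0.686% in Hrc to 12.06% in Trdn and 50.91% in Ryr2, where 26 of 28 such reads held the 27-base exon. In Trdn 29 of 241 spliced reads in replicate 1 and 29 of 240 in replicate 2 held one. The same unannotated intron appeared in both libraries 5 times in Trdn, 5 times in Srl, 2 times each in Casq2, Hrc and S100a1, and once each in Ryr2 and Asph, with none in Camk2d. In Hrc the most read of them, chr7:45338209-45338837, had 10 and 16 reads. In S100a1 an unannotated donor 4 bases past the annotated first exon (intron chr3:90512150-90514196) had 4 and 11 reads. In Srl the intron between the 1311-base exon and the shorter acceptor (chr16:4493878-4496404) had 2 and 8 reads.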
